A study of Mus musculus with 16 samples.

Results

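The heat shock chaperone genes are a group of 9 listed genes whose proteins fold, refold and disaggregate other proteins, and 7 of the 9 were measured here through 9 probes, among 36824 array features in all. The members were found by platform gene symbol or older alias, and probes of the same symbol were averaged. Hspa1b and Hspd1 matched no probe by symbol or alias and were not measured here. Hsph1 was measured by a probe whose platform name, Hsp110, is an old alias of both Hsph1 and Hspa4. That probe was assigned to Hsph1 because Hspa4 has a probe under its own symbol, and the assignment is uncertain.

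RNA came from the livers of male mice kept on chow, 8 heterozygous for a knockout of Lpl (Lpl+/-) and 8 wild type littermates. Lpl encodes lipoprotein lipase, which releases fatty acids from circulating triglyceride. Every liver was hybridised on 2-colour arrays against 1 common pool made from 9 wild type livers. Strain, age, the hour of tissue collection and the cells in which the targeted allele acts are not given in the sources used here.

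HSP70 proteins bind exposed hydrophobic stretches of unfolded proteins in a cycle driven by ATP. J-domain proteins deliver substrates and stimulate ATP hydrolysis, and HSP110 proteins release ADP so that the cycle can begin again. In mitochondria, the HSP60 and HSP10 proteins form a folding chamber, and small heat shock proteins hold unfolded proteins until HSP70 can act on them. Many of these genes are induced by heat shock factor 1, which binds repeated GAA units in their promoters, and in mouse liver several are known to follow a daily rhythm that tracks feeding and body temperature.

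A value is a deposited log ratio of a mouse over the pool, taken here as log10. The base is not stated, so a fold rests on that reading, whereas p-values do not. The direction is likely mouse over pool. In wild type mice Lpl itself ran from -0.0622 to 0.0496, and in Lpl+/- mice from -0.573 to -0.208, so the groups did not overlap (difference -0.378, limma adjusted p = 0.0158). The arrays of wild type 5 and wild type 8 opposed each other over all probes (r = -0.352), and which way these 2 arrays run is not settled. No member value stood at the limits of the scale, 2 and -2. A ratio to a pool cannot show how abundant a transcript is, nor whether markers of liver cells are expressed. In whole liver, fewer cells of a type and less RNA per cell cannot be told apart.

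Promoter windows were available for 8 of the 9 listed genes and 6 of the 7 measured ones. They run from 250 bases before to 50 bases after the annotated start, in RefSeq's table for GRCm38.p6. The windows were searched on both strands for a heat shock element of 2 units (GAANNTTC or TTCNNGAA), a longer element of 3 units (the shorter one followed, after 2 further bases, by a next GAA or TTC in turn), and the E-box CACGTG bound by clock factors. Of all 32851 windows in the table, 15.1% held the shorter element, 0.603% the longer one and 7.15% the E-box. Among the first-listed windows of measured genes, 3 of 6 held the shorter element, those of Hsph1, Hspe1 and Hspb1. The longer element was found in the windows of Hsph1 and Hspe1. The E-box was found in that of Hsph1. The windows of Hspa4 and Dnajb1 held none of these, and of 2 windows for Dnajb4 the second-listed held 1 shorter element. For each measured gene with an element, 1 window is shown with the element in capitals, because these sequences show how differently built these promoters are. Hsph1 (chr5:149636287-149636586, minus strand), Hspe1 (chr1:55087898-55088197, plus strand), Hspb1 (chr5:135887669-135887968, plus strand) and the second start of Dnajb4 (chr3:152193796-152194095, minus strand) read as follows.
Hsph1: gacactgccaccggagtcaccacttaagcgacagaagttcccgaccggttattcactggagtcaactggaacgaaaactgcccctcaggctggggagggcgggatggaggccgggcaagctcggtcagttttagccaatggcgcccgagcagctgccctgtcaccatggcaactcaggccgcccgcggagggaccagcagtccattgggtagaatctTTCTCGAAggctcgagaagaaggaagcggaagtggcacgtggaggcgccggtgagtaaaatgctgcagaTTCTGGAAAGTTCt
Hspe1: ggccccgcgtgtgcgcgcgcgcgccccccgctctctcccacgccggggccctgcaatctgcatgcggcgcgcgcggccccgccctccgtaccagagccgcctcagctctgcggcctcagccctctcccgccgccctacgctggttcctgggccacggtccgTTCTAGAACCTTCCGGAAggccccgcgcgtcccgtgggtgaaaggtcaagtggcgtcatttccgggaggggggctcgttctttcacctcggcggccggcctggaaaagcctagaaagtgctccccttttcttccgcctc
Hspb1: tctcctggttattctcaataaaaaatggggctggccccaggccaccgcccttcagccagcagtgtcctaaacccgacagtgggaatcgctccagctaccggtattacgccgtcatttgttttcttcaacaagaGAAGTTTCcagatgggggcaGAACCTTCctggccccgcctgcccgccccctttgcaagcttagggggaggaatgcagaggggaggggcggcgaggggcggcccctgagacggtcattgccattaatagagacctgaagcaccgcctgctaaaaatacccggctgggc
Dnajb4: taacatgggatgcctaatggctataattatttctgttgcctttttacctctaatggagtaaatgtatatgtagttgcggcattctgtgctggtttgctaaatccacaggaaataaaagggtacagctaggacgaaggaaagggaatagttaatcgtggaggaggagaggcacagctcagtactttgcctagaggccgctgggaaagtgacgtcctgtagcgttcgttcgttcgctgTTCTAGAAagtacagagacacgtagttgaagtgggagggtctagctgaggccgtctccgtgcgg
In Hspe1 the units run on without a break, whereas Hspb1 has 2 separate short elements. A match describes these letters and is not evidence that a factor binds there.

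The first comparison asked whether the chaperone genes differ between Lpl+/- and wild type liver. All 7 measured members had a lower mean in Lpl+/- mice, with differences from -0.07 for Hspe1 to -0.00269 for Hspb1, yet 0 of 7 passed limma's test at an adjusted p of 0.05, against 0.0163% of all features. Over all features, 49% had a difference below 0. The median difference was -0.0386 over the members and 0.000531 over all features. At an unadjusted p under 0.05, Hspa4 and Dnajb4 were lower, as were 3.38% of all features. For 0 of 7 members, and for 0.038% of all features, did the values of the groups not overlap. The count of members below 0 fell from 7 to between 5 and 6 when wild type 1, 7 or 8 or Lpl+/- 2, 3 or 8 was left out. Turning the sign of wild type 5 gave 6, and turning that of wild type 8 gave 5.

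Hspa4 encodes an HSP110 protein that serves as nucleotide exchange factor for HSP70. Its log ratio in wild type mice had a lowest value of -0.0896, a median of 0.0047 and a highest value of 0.11. In Lpl+/- mice it had a lowest value of -0.112, a median of -0.0562 and a highest value of 0.0142. All Lpl+/- mice except Lpl+/- 2 lay below the wild type median, and the groups overlapped, with wild type 6 among the low values. The difference was -0.068 (SE 0.0255), a 0.855-fold level if log10, with an exact two-sided permutation p of 0.023 and a limma adjusted p of 0.836 over all features. Hsph1, the other HSP110 gene, ranged from -0.169 to 0.0755 (median 0.0564) in wild type and from -0.154 to 0.126 (median -0.0375) in Lpl+/- mice. Its values split into a high and a low set within both genotypes, and the difference of -0.0133 (SE 0.0479) was well inside that spread.

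Hspa8 encodes the constitutive HSP70 of the cytosol, also needed to strip clathrin from vesicles. It ranged from -0.125 to 0.0966 (median 0.0232) in wild type mice and from -0.0954 to 0.0693 (median -0.0171) in Lpl+/- mice. The groups covered nearly the same range, with a difference of -0.028 (SE 0.034, limma adjusted p = 0.882). Hspa1a, a near-identical copy of the unmeasured Hspa1b that is strongly induced by stress, had a difference of -0.0342 (limma adjusted p = 0.836), and its probe cannot be told from Hspa1b without its sequence.

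Dnajb4 encodes a J-domain partner of HSP70. Its values in wild type mice ran from -0.0446 through a median of -0.022 to 0.0856. In Lpl+/- mice they ran from -0.0725 through a median of -0.0529 to only -0.0438. Wild type 4 and wild type 5 stood far above all other mice, while the Lpl+/- mice were packed together, 7 of 8 of them below every wild type mouse. The SD was 0.0115 in Lpl+/- and 0.0544 in wild type mice. The difference was -0.0542 (SE 0.0194), a 0.883-fold level if log10, with an exact two-sided permutation p of 0.000311 where the smallest possible is 0.000155. The limma adjusted p over all features was 0.836. Once the ratio of wild type 5 was turned, its value of -0.0856 lay below every Lpl+/- mouse, so 0 of 8 Lpl+/- mice were below every wild type mouse, and the difference was -0.0328 (exact permutation p = 0.0412). With wild type 8 turned instead, 7 of 8 were below and the difference was -0.0635 (exact permutation p = 0.000311). Dnajb4 has 2 probes, which differed between the groups by -0.0705 (exact permutation p = 0.00187) and by -0.0378 (exact permutation p = 0.0965). Across the mice the probes had a Pearson r of 0.662 but a Spearman rho of 0.127, so they agreed mainly on which mice were highest. The close packing, the SD and the 7 of 8 above are those of the averaged probes. In Lpl+/- mice the first probe ran from -0.101 to -0.0438 and the second from -0.0811 to -0.0139. The lowest wild type values of these probes were -0.0565 and -0.0479.

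Dnajb1, the J-domain protein best known as the partner of HSP70 under stress, lies on chromosome 8, as Lpl does. Its wild type values ran from -0.0484 through a median of -0.00675 to 0.127, and its Lpl+/- values from -0.0867 through -0.0208 to 0.0206. The highest values were again those of wild type 4 and wild type 5, and the remaining mice overlapped (difference -0.0386, SE 0.0241, limma adjusted p = 0.836).

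Hspe1 encodes HSP10, the lid of the mitochondrial chaperonin whose barrel subunit is the unmeasured Hspd1. In wild type mice it ran from -0.161 through a median of 0.0605 to 0.158, and in Lpl+/- mice from -0.115 through -0.0304 to 0.0184. All Lpl+/- mice lay below the wild type median but inside the wild type range, since wild type 4 and wild type 6 were the lowest of all mice. The SD was 0.052 in Lpl+/- and 0.133 in wild type mice, and the difference was -0.07 (SE 0.0473, limma adjusted p = 0.836).

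Hspb1, the small heat shock protein HSP25 of the mouse, varied most of all members, with an SD over the mice above that of 96.2% of features. It ran from -0.222 through -0.0337 to 0.192 in wild type mice and from -0.203 through -0.0187 to 0.236 in Lpl+/- mice. Lpl+/- 4, wild type 7 and wild type 8 were high in both probes, which tracked each other closely (r = 0.95, rho = 0.915). The genotypes had nearly the same mean, with a difference of -0.00269 (SE 0.0671, limma adjusted p = 0.996). Dnajb4, at the other end, varied more than only 57.5% of features.

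**Figure D1:**
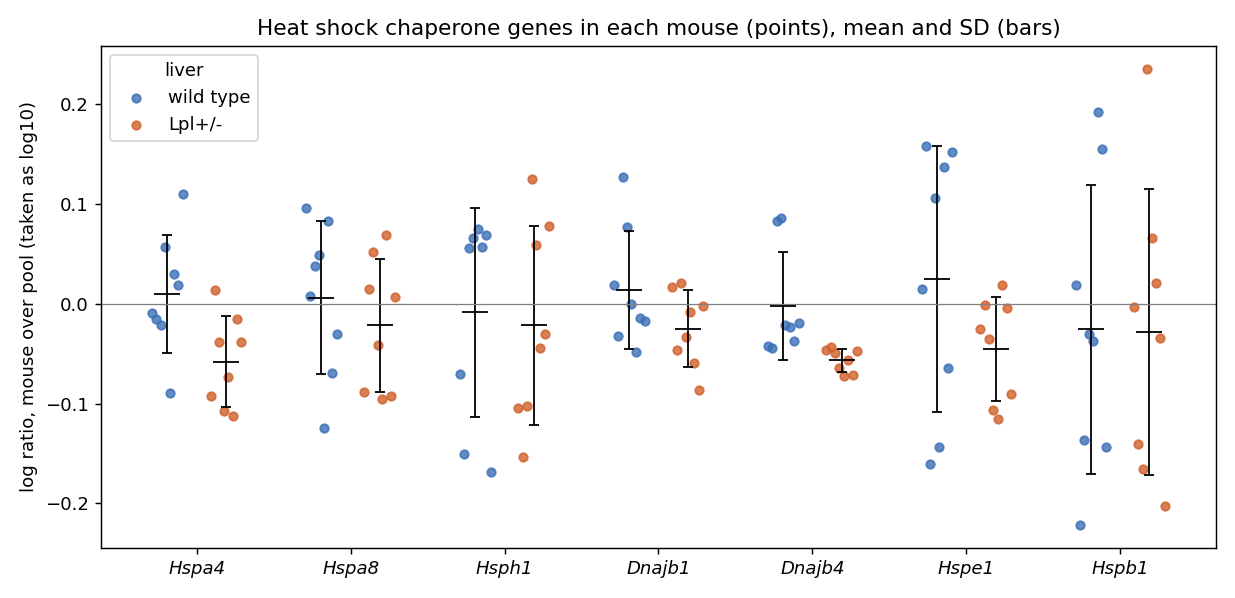
Log ratio of each mouse over the wild type pool (vertical axis, taken as log10) for the 7 measured genes, with 1 point per mouse, the mean as a horizontal bar and the SD as an error bar, 8 mice in each genotype. The Lpl+/- mice cluster tightly for Dnajb4 (SD 0.0115), whereas Hspb1 spreads from -0.222 to 0.236.

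Set against the pool, 0 of 7 members were called in Lpl+/- mice, where 0.0543% of features were, and the lowest adjusted p was 0.153, for Dnajb4 (limma). At an unadjusted p under 0.05, Hspa4 and Dnajb4 were lower than the pool, beside 12.2% of all features in either direction. Wild type mice against the same pool gave 0 called features (0%) by limma, with 691 (1.88%) and 0 of 7 members at an unadjusted p under 0.05. The Lpl+/- and wild type comparisons with the pool share that pool. The labels do not say whether these wild type mice are among the livers of the pool. If they are, a wild type mean near 0 is partly built in. The shares of these comparisons therefore cannot be read as a difference between the genotypes.

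Other genes of the pathway did not pass the test either. Of 32 other heat shock genes and co-chaperones, 15 were higher and 17 lower in Lpl+/- mice, with a median difference of -0.00302 and 0 called by limma. Among them, Bag3, a co-chaperone of HSP70 in selective autophagy, differed by -0.0556. Ptges3, the p23 co-chaperone of HSP90, differed by 0.0918. Of 8 subunits of the TRiC chaperonin, which folds actin and tubulin, 6 were lower, with Cct2 at -0.033 and Tcp1 at -0.0411. Of 14 endoplasmic reticulum chaperones, 9 were higher, with Pdia4 at 0.11 and Sdf2l1 at 0.103, and of 8 mitochondrial chaperones and proteases 4 were higher. Both cold-inducible RNA-binding proteins, Rbm3 at -0.025 and Cirbp at -0.00686, differed little. Adjusted p-values for these named genes were at least 0.836 (limma).

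Markers of other liver cells were tallied beside these values. In Lpl+/- mice, 10 of 12 macrophage, 6 of 8 hepatocyte, 7 of 10 stellate cell, 5 of 8 endothelial, 5 of 8 neutrophil, 5 of 8 lymphocyte and 4 of 6 bile duct markers were lower, and 4 of 4 red cell markers were higher, with 0 called by limma in any list. The mean log ratio of the 12 macrophage markers ranged from -0.152 to 0.15 in wild type and from -0.155 to 0.123 in Lpl+/- mice. Their part in the chaperone values was not tested.

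The second question was how the chaperone genes relate to the liver clock. A clock score was formed by taking the log ratio of Arntl, the activator BMAL1, and subtracting the averaged log ratios of Dbp and Per2, which peak at the opposite time of day. It ran from -0.811 to 0.857 and left a gap between -0.417 and 0.091, so that 7 mice formed a lower set (4 wild type, 3 Lpl+/-) and 9 a higher set (4 wild type, 5 Lpl+/-). The sets follow the replicate numbers. The lower set holds wild type 1, 2, 4 and 5 and Lpl+/- 1, 2 and 3, and the higher set the later numbers of each genotype. An order or batch carried by these numbers cannot be told apart from the difference between the sets. Of the 7 members, 0 passed limma's test of a slope on the score with genotype as a term, against 0.682% of the features outside the score. At an unadjusted p under 0.05 the count was 0 of 7 members and 7.85% of features. Of 13 other clock genes measured, 4 were called: Clock rose with the score, and Per3, Bhlhe40 and Per1 fell with it.

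By slope, 5 members had a value below 0 and 2 a value above 0, beside 46.1% of all features below 0. Dnajb1 had a slope of -0.0404 (SE 0.0215, limma adjusted p = 0.719), Hspa8 one of -0.061 (SE 0.0298, limma adjusted p = 0.665), and Dnajb4 one of -0.0277 (SE 0.0179). Hspa4 and Hspe1 were flatter, at -0.0168 and -0.0314. Hsph1 had a slope of 0.0839 (SE 0.0422, limma adjusted p = 0.687) and Hspb1 one of 0.0997 (SE 0.0612, limma adjusted p = 0.792).

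In the lower set Hsph1 had a median of -0.103 and in the higher set 0.0586, and Hspb1 had medians of -0.136 and 0.0207. Hspa8 went the other way, with medians of 0.0384 and -0.0411. Both sets overlapped for every member, since wild type 4 and wild type 5 had high Hsph1 in the lower set and wild type 9 the lowest Hsph1 in the higher one. Because the mice fall into 2 separate sets, no correlation with the score pooled over them is given. All slopes on the score or on single clock genes are pooled, so they take in any difference between the sets. Within the lower and higher set, the slope was -0.087 and -0.000433 for Hsph1, -0.482 and -0.0228 for Hspb1, and -0.197 and -0.1035 for Hspa8. It was -0.0289 and 0.0471 for Dnajb1, 0.0178 and -0.0129 for Dnajb4, -0.0647 and -0.0769 for Hspa4, and 0.289 and -0.1545 for Hspe1. Within the sets, 14 correlations were computed over 7 or 9 mice, and the smallest exact permutation p was 0.159, for Hspb1 in the lower set (r = -0.603, rho = -0.571, Benjamini-Hochberg adjusted 0.936). The slope did not pass a test of difference between genotypes for any member or any feature (limma interaction, 0% called, 4.04% of features at an unadjusted p under 0.05).

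With Dbp alone as the measure, the slopes of Hspb1 (-0.458), Hsph1 (-0.295) and Hspa8 (0.211) had unadjusted p-values of 0.0159, 0.033 and 0.0313, and limma adjusted p-values of 0.385, 0.484 and 0.478. With Arntl alone, the unadjusted p-values of these members were 0.18, 0.0664 and 0.0659, and with Per2 alone 0.151, 0.137 and 0.0871. Macrophage markers moved with the score in the same direction as Hsph1 and Hspb1, with 12 of 12 slopes above 0. Of these slopes, 11 had an unadjusted p under 0.05 and 0 were called by limma. Slopes were also above 0 for 10 of 10 stellate cell, 7 of 8 hepatocyte, 6 of 8 endothelial and 6 of 8 neutrophil markers. So were those of 5 of 8 lymphocyte, 3 of 4 red cell and 3 of 6 bile duct markers, beside 19830 of 36821 features. The direction was therefore not particular to macrophage markers. The part of these cells in the slopes of Hsph1 and Hspb1 was not tested. Of the 14 endoplasmic reticulum chaperones, 13 had a slope above 0, and of the 32 other heat shock genes 23 had, with 0 called in either list. Clpx, a mitochondrial unfoldase, rose with the score (slope 0.206, limma adjusted p = 0.0032).

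**Figure D2:**
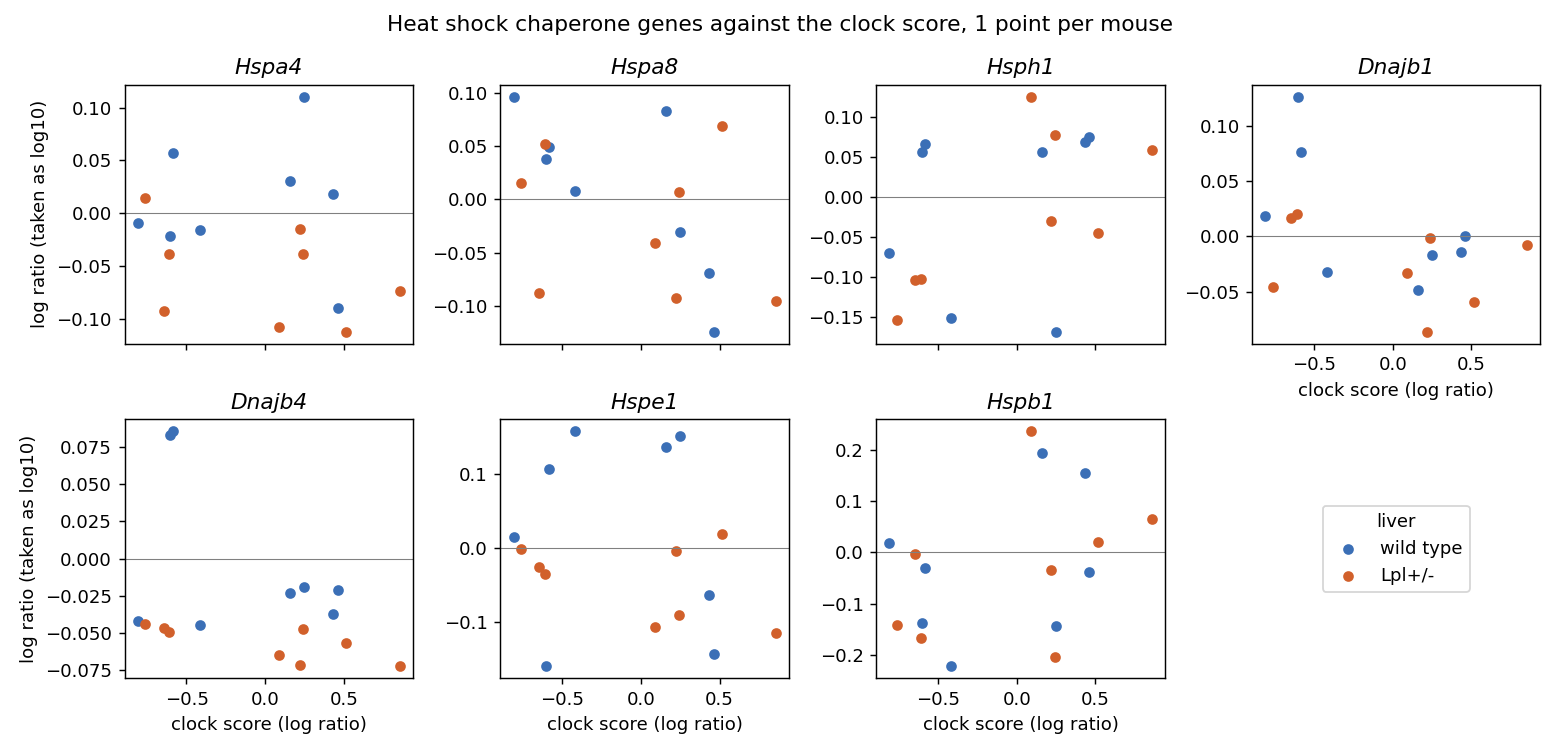
Log ratio of each member (vertical axes, taken as log10) against the clock score (horizontal axes, the log ratio of Arntl less the averaged ones of Dbp and Per2), 1 point per mouse, coloured by genotype. The empty strip between -0.417 and 0.091 separates 7 mice from 9, and values of every member overlap between these sets.

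The third question was whether the members vary together from mouse to mouse. They did not move as 1 group. Of 21 pairs, 12 had a Pearson r above 0 and 9 below 0, with a median of 0.113, and 4 had an r beyond 0.5 in size. Each r is pooled over both clock sets, so it takes in any difference between them. In the lower and higher set, r was 0.8565 and 0.3895 for Dnajb1 with Dnajb4, and 0.402 and 0.733 for Hspa4 with Hspe1. It was 0.338 and 0.506 for Hsph1 with Hspb1, and -0.295 and -0.711 for Hsph1 with Hspe1. Of 42 slopes of one member on another with genotype as a term, 0 were called over all features (limma), against shares of features called between 0% and 1.84% for the 7 members as covariate.

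Dnajb1 and Dnajb4 had the highest r, at 0.806 (permutation p = 0.00155, n = 16), but a rho of 0.444 (permutation p = 0.0858). Without wild type 4 and wild type 5, the 2 mice farthest from the Dnajb1 median, r was 0.271, so the relation rests on these mice. Once wild type 5 was turned, the r was 0.797 and the rho 0.441, and with wild type 8 turned they were 0.787 and 0.521. The slope of Dnajb4 on Dnajb1 was 0.614 (SE 0.145, limma adjusted p = 0.0905), and with wild type 6 left out it was called, at an adjusted p of 0.0363. The immediate early genes Atf3 and Jun had an r with Dnajb4 of 0.814 and 0.739, which became 0.538 and 0.536 without the same 2 mice (limma adjusted p = 0.811 and 0.848). Atf3 and Jun themselves had lower means in Lpl+/- mice (differences -0.0913 and -0.217, limma adjusted p = 0.836 for each). The r over all mice therefore takes in that difference. For Atf3 the r was 0.777 within wild type and 0.138 within Lpl+/- mice, and for Jun 0.622 and 0.431. With wild type 5 turned, the r over all mice was 0.692 for Atf3 and 0.608 for Jun.

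Hspa4 and Hspe1 had an r of 0.627 (permutation p = 0.00914) and a rho of 0.535 (permutation p = 0.0356) over 16 mice. The r was 0.63 without Lpl+/- 6 and wild type 9, 0.678 in wild type mice and 0.258 in Lpl+/- mice. Hsph1 and Hspe1 ran opposite, with an r of -0.543 (permutation p = 0.0318) and a rho of -0.591 (permutation p = 0.0181). The r was -0.472 without Lpl+/- 2 and wild type 9, and negative in both genotypes (-0.597 in wild type, -0.808 in Lpl+/- mice). Adjusted over all features, the slopes of these pairs had p-values of 0.182 and 0.225 for Hspa4 with Hspe1, and of 0.118 and 0.254 for Hsph1 with Hspe1 (limma).

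**Figure D3:**
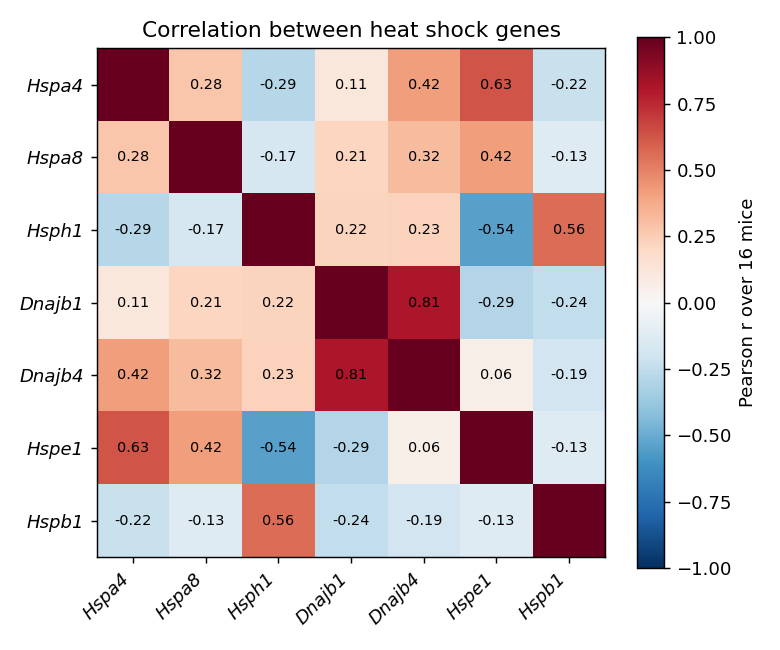
Pearson r over 16 mice for each pair of the 7 measured genes, on a colour scale from -1 to 1. Only Dnajb1 with Dnajb4 (0.806), Hspa4 with Hspe1 (0.627), Hsph1 with Hspb1 (0.561) and Hsph1 with Hspe1 (-0.543) lie beyond 0.5 in size.

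Hsph1 and Hspb1 had an r of 0.561 (permutation p = 0.0256), a rho of 0.444 (permutation p = 0.0882) and an r of 0.484 without Lpl+/- 2 and wild type 9. Each of them went with other chaperones. With Hsph1, 25 of the 32 other heat shock genes had an r above 0 (78.1%, median 0.339), and so did 13 of the 14 endoplasmic reticulum chaperones (92.9%, median 0.493), beside 45.2% of all features (median -0.0466). Of the 12 macrophage and Kupffer cell markers, 11 had an r above 0 with Hsph1 (91.7%, median 0.322). Stellate cell markers had 7 of 10 (median 0.195), bile duct markers 4 of 6 (0.115) and hepatocyte markers 5 of 8 (0.00582). The part of these cells in these correlations was not tested. With Hspb1, 20 of 32 (62.5%, median 0.243) and 12 of 14 (85.7%, median 0.5) had an r above 0, beside 48.7% of all features (median -0.0114). Hspe1 went the other way, with 13 of 32 and 4 of 14 above 0 (medians -0.196 and -0.262), beside 53.8% of all features (median 0.0412). Its r with the 8 TRiC subunits was above 0 for 5 of 8, with a median of 0.537 and a range from -0.744 for Cct6a to 0.656 for Cct4. For Hspa4 it was above 0 for 6 of 8, with a median of 0.516 and a range from -0.549 to 0.768, beside 53.7% of all features (median 0.0356). The counts and medians of these lists also pool both clock sets.

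Hsp90aa1, the stress-inducible HSP90, was the single gene among the 32 whose slope on a member was called. It rose with Hspb1 with a slope of 0.84 (limma adjusted p = 0.0392). The r was 0.858 over 16 mice (permutation p = 2e-05), 0.747 without wild type 7 and Lpl+/- 4, 0.873 in wild type and 0.847 in Lpl+/- mice, with a rho of 0.735 (permutation p = 0.00158). Within the lower clock set r was 0.814 and within the higher set 0.844. Hsp90aa1 was highest in Lpl+/- 4 (0.24), wild type 8 (0.16) and wild type 7 (0.151), the same mice that were highest for Hspb1. The call ended without wild type 2, 4, 6, 7 or 8 or Lpl+/- 1, 2, 3 or 4, with adjusted p-values up to 0.287 over the left-out mice, while the slope stayed between 0.78 and 0.901. It also ended with the sign of wild type 8 turned (adjusted p = 0.0735) and without wild type 4 and Lpl+/- 3 and 8, the arrays that most often reached a limit of the scale (adjusted p = 0.053). Macrophage markers had an r above 0 with Hspb1 in 12 of 12 cases (median 0.387). Stellate cell markers had 8 of 10 (median 0.373), bile duct markers 4 of 6 (0.369) and red cell markers 3 of 4 (0.358). Neutrophil markers had 5 of 8 (median 0.181) and endothelial markers 4 of 8 (-0.0061). Hepatocyte markers, with 1 of 8 (median -0.397), and lymphocyte markers, with 2 of 8 (-0.17), went the other way. The part of these cells in this relation was not tested.

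Beyond Hsp90aa1, 15 more features were called on Hspb1 (16 in all, 0.0435%, of which 13 rose and 3 fell). Unnamed probes and provisional names, such as those with Rik or Gm, were set aside, which left features with an established symbol. The best ranked of these were chosen after their values were seen. Those that rose were Hp, the acute phase protein haptoglobin (slope 1.49), Slc2a3, a glucose transporter (0.721), Cdca7 (0.308), H4c6 (0.363) and Ankrd46 (0.564). Those that fell were Cyp4f14, a fatty acid hydroxylase (-0.507), and Retreg1, a receptor for autophagy of the endoplasmic reticulum (-0.657). Leaving out 1 mouse moved the count from 16 to between 0 (wild type 7 or Lpl+/- 4) and 115 (Lpl+/- 8). It was 62 with quantile normalization, 91 with array weights and 4 with wild type 8 turned.

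Ahsa1, which activates the ATPase of HSP90, and Stip1, which bridges HSP70 and HSP90, followed Hsph1 with r of 0.832 and 0.802 (limma adjusted p = 0.111 and 0.116). Hspa5, the HSP70 of the endoplasmic reticulum, followed it with r of 0.814 (limma adjusted p = 0.111). The r stayed between 0.766 and 0.805 for these genes without Lpl+/- 2 and wild type 9. In the lower and higher clock set, r was 0.731 and 0.957 for Ahsa1, 0.831 and 0.704 for Stip1, and 0.938 and 0.686 for Hspa5. Without wild type 5, Ahsa1 and Hspa5 were called (adjusted p = 0.0409 and 0.0421), and without Lpl+/- 1 Ahsa1 was.

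Of 6 features called on Hsph1 (0.0163%), those with an established symbol were Ero1lb, an oxidase that forms disulfide bonds in the endoplasmic reticulum (slope 1.07), and Crem, a cyclic AMP responsive factor (slope 0.737). Both had a limma adjusted p of 0.043 and were named after their values were seen. The call of Crem held in 2 and that of Ero1lb in 3 of the 16 fits that left out 1 mouse. Without wild type 5, 147 features were called on Hsph1.

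Hspe1 had 676 features called on it (1.84%), 340 rising and 336 falling. That count depended on single mice and on the processing. It was between 0 and 3 without wild type 1, 2, 4, 5, 6 or 9 or Lpl+/- 5, 6, 7 or 8, and rose to 1311, 2020 and 1575 without wild type 7, wild type 8 and Lpl+/- 3. It was 1 with quantile normalization, 182 with each array centred on its median, 2849 with array weights and 1966 once wild type 8 was turned. In the 14 arrays with a shared replicate number, it was 0 with the replicate block and 1 without the block. By limma, 1 feature without an established symbol was called on Dnajb1 (0.00272%), and 0 on Hspa4, Hspa8 and Dnajb4 (0% each). The count on Dnajb1 was 1887 without wild type 6, 36 without wild type 5, 5891 with array weights and 217 with quantile normalization. On Hspa4 it was 1346 without Lpl+/- 6 and 5058 with array weights, and on Dnajb4 it was 22 without wild type 5.

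**Figure D4:**
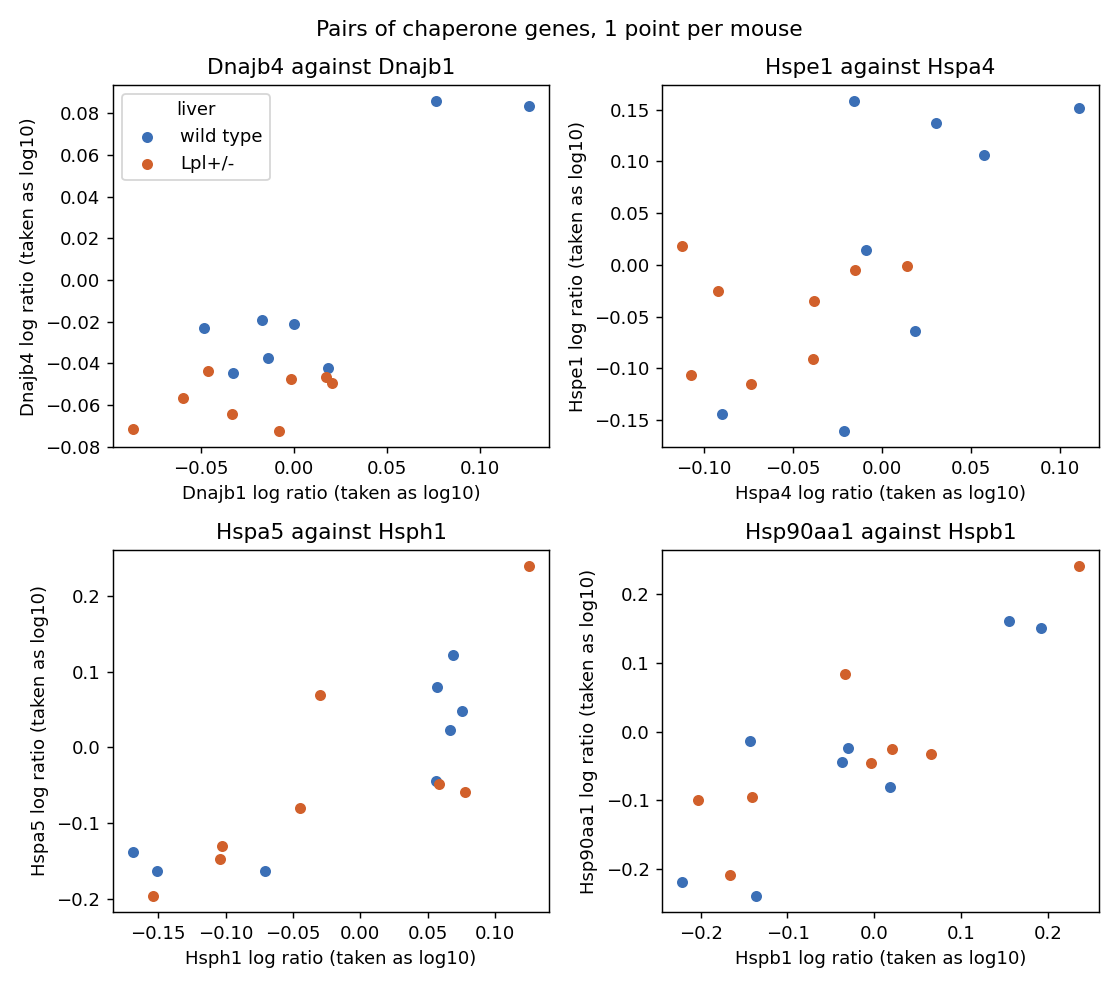
Log ratios (both axes, taken as log10) of Dnajb4 against Dnajb1, Hspe1 against Hspa4, Hspa5 against Hsph1 and Hsp90aa1 against Hspb1, 1 point per mouse, coloured by genotype. In the Dnajb1 panel 2 wild type mice stand alone at the upper right, and r falls from 0.806 to 0.271 without them, whereas Hsp90aa1 follows Hspb1 in both genotypes (0.873 and 0.847).

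The genes whose pattern was most like the mean of the 7 members, each scaled to unit SD, after removing the group means, were Il13 (r = 0.835 over 16 mice), Omt2b (0.825), 4930429F24Rik (0.795), 6330509M23Rik (0.787), 4933435C09Rik (0.773), Txnl4 (0.766), Fam83c (0.747), Inpp5a (0.744), Zfyve16 (0.742) and Letm2 (0.733). The most opposite were Cavin3 (-0.848), 1700001O22Rik (-0.806), Agr3 (-0.754), Trpm5 (-0.732) and H2-Q8 (-0.728). These genes were picked as the ends of a ranking over all features with a symbol outside the members. High values of r are therefore built into the choice, and no p-value was computed for them. The members' own r with the mean of the members, which each of them enters, ran from 0.179 for Hspb1 to 0.702 for Dnajb4.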

How the data were processed

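The deposited table holds 1 column per mouse of log ratios against a pool, read as log10 because the authors' values end at exactly 2 and -2. Dyes were swapped, per the series' design text. Scanner, normalization, log base and build are not given in the sources used here. Values were used as deposited (array medians -0.0045 to 0.0072, 0 missing, 0 columns unused). Symbols came from the platform annotation (39556 probes, 23283 with 1 symbol, 0 with several and 16273 with none) and were updated through RefSeq synonyms for 5077 features.

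All features were fitted with limma 3.58.1 in R 4.3.3 (lmFit, eBayes, two-sided, Benjamini-Hochberg, adjusted p under 0.05): genotype, clock score with genotype, their interaction, each group against the pool, and each member as covariate with genotype. Genes that make up a covariate were not tested against it, and the adjustment leaves them out. Correlations have permutation p-values (100000 resamples, smallest possible 1e-05). The 21 member pairs and 84 relations with listed genes were computed. Replicates are separate mice, per the labels, and which of them share a litter is not stated.

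Members, gene lists and tests were chosen with earlier results of these data known. Named were all members, Lpl, the clock genes of the score, the 10 and 5 features most like and opposite the members' mean, and up to 4 genes per list by smallest p. The lists hold chaperone, clock, immediate early, glucocorticoid-induced and cell type marker genes. Of 14 immediate early genes 9, and of 6 glucocorticoid-induced genes 4, were lower in Lpl+/- mice, and of 16 clock genes 8 were, with 0 called by limma. The fits were tested on simulated data. The reported clock score holds 3 genes. An alternative score planned from 9 clock genes was made from 8, as Nr1d2 was not measured. Alternatives were scaling, probe averaging, variance model, array weights, limit values, array signs, a replicate block and each mouse left out.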

Additional observations from a re-analysis of the deposited data

How the results depend on the processing

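For Lpl+/- against wild type, relation to clock genes, clock slope and both comparisons with the pool, 0 members were called under every alternative run. The lowest adjusted p of any member by limma was 0.521 for genotype, 0.321 for the relation to clock genes and 0.102 for Lpl+/- mice against the pool. The number of mice, 8 in each group, limits the precision. Counts over all features moved more. For genotype, the 6 called features became 0 with quantile normalization and with a robust, trended variance, 3 with the sign of wild type 8 turned, 1 without the 3 arrays that most often reached a limit of the scale (chosen after seeing the data), and 1 to 9 with 1 mouse left out. For the clock score, 251 became 474 with array weights, 142 without those 3 arrays, 7 in wild type mice alone, 29 in Lpl+/- mice alone, 0 within the lower and 0 within the higher set (these splits also chosen after seeing the data), and 150 to 289 with 1 mouse left out. For Lpl+/- mice against the pool, 20 became 0 with the robust variance, 48 with array weights, 34 and 33 with wild type 5 or wild type 8 turned, 6 without those 3 arrays, and 13 to 126 with 1 mouse left out. For wild type mice against the pool, 0 became 0 to 1 with 1 mouse left out. The median of the members there, 0.00628, became -0.006 with wild type 5 turned and -0.00237 without those 3 arrays, and -0.00237 to 0.0157 with 1 mouse left out. Among slopes of one member on another, 0 became 3 with array weights and 0 to 1 with 1 mouse left out. The cause of these changes was not tested.

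By correlation, the 7 shared replicate numbers gave no clear pairing of the mice. Of 7 same-numbered pairs, 3 had a correlation of deviations over 0.1, and 1 of 7 wild type mice correlated best with its own number. These correlations cannot show whether mice of the same number shared a day or an order of handling. In both genotypes the lower clock set holds the low numbers. With the replicate block over 14 arrays, called features numbered 1 for genotype (1 in the same 14 arrays without the block), 0 for the clock score and 6 for Lpl+/- mice against the pool, and Hsp90aa1 on Hspb1 had an adjusted p of 0.0852.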
